A study of Macaca fascicularis with 4 samples.

Results

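The genes described here are the collagens: every gene whose name reads COL, a number, A and a number, which gave 43 genes of the 26223 gene rows in the tables. They were sorted by the structure their chains are known to build. There were 8 fibrillar, 7 cartilage-associated and 9 basement membrane or basement-membrane-zone genes, 5 genes of the beaded-filament type VI collagens, and 2 network, 6 other fibril-associated (FACIT), 4 transmembrane and 2 remaining genes. COL22A1 was not analysed here. Their transcripts were counted, by sequencing of 3′ ends from single cells in droplets, in embryos of the cynomolgus monkey (Macaca fascicularis). There was 1 library for each of 4 embryonic days: E24 at Carnegie stage 11, E28 at stage 13, E31 at stage 14 and, last, E37 at stage 18. The series title places the samples in a study of where the somatic cells of the gonad come from. No treatment or genotype is named for any stage.

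The dissected tissue differed between stages. At E24 the trunk was kept after the extra-embryonic membranes, the heart with everything anterior to it, and the caudal growth region had been cut away. At E28 and E31 the urogenital ridge was taken along with the mesonephros, the coelomic lining and a piece of the mesentery. At E37 it was mainly the gonadal ridge, with remnants of mesonephros and mesentery and the presumed adrenal. Stage, dissection and library therefore cannot be told apart in comparisons between stages. E28 and E31 share a dissection, so that only stage and library cannot be told apart there. At E24 the labels name more than 1 embryo, which the barcodes do not tell apart, and the library is treated as 1 sample.

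Collagens are triple helices of 3 chains, each encoded by its own gene, so that a protein is made either from copies of a single chain or from partner chains in fixed proportion. Fibrillar collagens form the cables of mesenchyme, tendon and skin, type II with types IX and XI forms the thin fibrils of cartilage and of the notochord sheath, and type IV forms the sheet-like network of basement membranes under epithelia and around vessels. In the urogenital ridge these matrices separate the coelomic epithelium, nephric tubules and vessels from the mesenchyme between them.

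The libraries held 27626 cell barcodes in all, with 115332663, 62477350, 72233442 and 40243286 unique molecular identifiers (UMIs, single captured transcripts). Values given in fours stand in the order of the stages, E24 first. The median barcode held 9990, 11391, 9766 and 6674 UMIs. Levels are given as CPM, the gene's UMIs per 1000000 UMIs of the library or group. Counts of 3′ ends carry no gene length term, but they depend on how well each 3′ end is annotated, so a gene is compared across groups and not with other genes unless the ratio itself is followed. Ratios have 95% intervals that cover counting error within these libraries only. No stage has a second library, so no p-value is given. Between 37 and 111 barcode sequences were shared by each pair of libraries, at most 1.67% of the smaller library.

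Free RNA can place collagen UMIs in droplets whose cells do not make collagen. Collagens held 0.164%, 0.142%, 0.132% and 0.294% of all UMIs in the 4 libraries. In barcodes with at least 2 macrophage markers the share was 0.0516%, 0.0341%, 0.0412% and 0.0551%. In barcodes with at least 3 of 8 erythroid markers it was 0.0996%, 0.0860%, 0.0392% and 0.0479%. With at least 5 erythroid markers, a rule added after the values were seen, it was 0.0168% at E24 and 0.0146% at E37. The share in these barcodes was thus below the library level in every case. How much of it was free RNA was not tested. Each collagen level in a small group has to be read beside the level in these barcodes.

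COL1A1 and COL1A2, the chains of type I collagen, and COL3A1, which forms type III fibrils beside them, led the fibrillar genes. COL1A1 had a level of 136, 232, 181 and 540 CPM in stage order. COL1A2 stood at 217, 258, 230 and 864 CPM. COL3A1 stood at 426, 166, 175 and 594 CPM, so that its second highest level was at E24, where type I was lowest. COL5A1 and COL5A2, whose chains limit the width of type I fibrils, were lowest at E28 and E31: COL5A1 read 45.2, 28.5, 24.9 and 70.9 CPM, and COL5A2 read 98.2, 58.6, 62.2 and 116 CPM. The fibrillar genes together held 936, 758, 686 and 2206 CPM, which was 57.0%, 53.5%, 51.9% and 75.0% of all collagen UMIs. At E37 the abundant chains made up nearly all of this. COL27A1, a fibrillar collagen of cartilage, lay between 11.1 and 19.6 CPM in all 4 libraries. COL24A1 read 0.191, 1.86, 1.70 and 0.796 CPM. COL5A3 reached 0.945 CPM at E37 and had 11 to 38 UMIs per library.

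**Figure D1:**
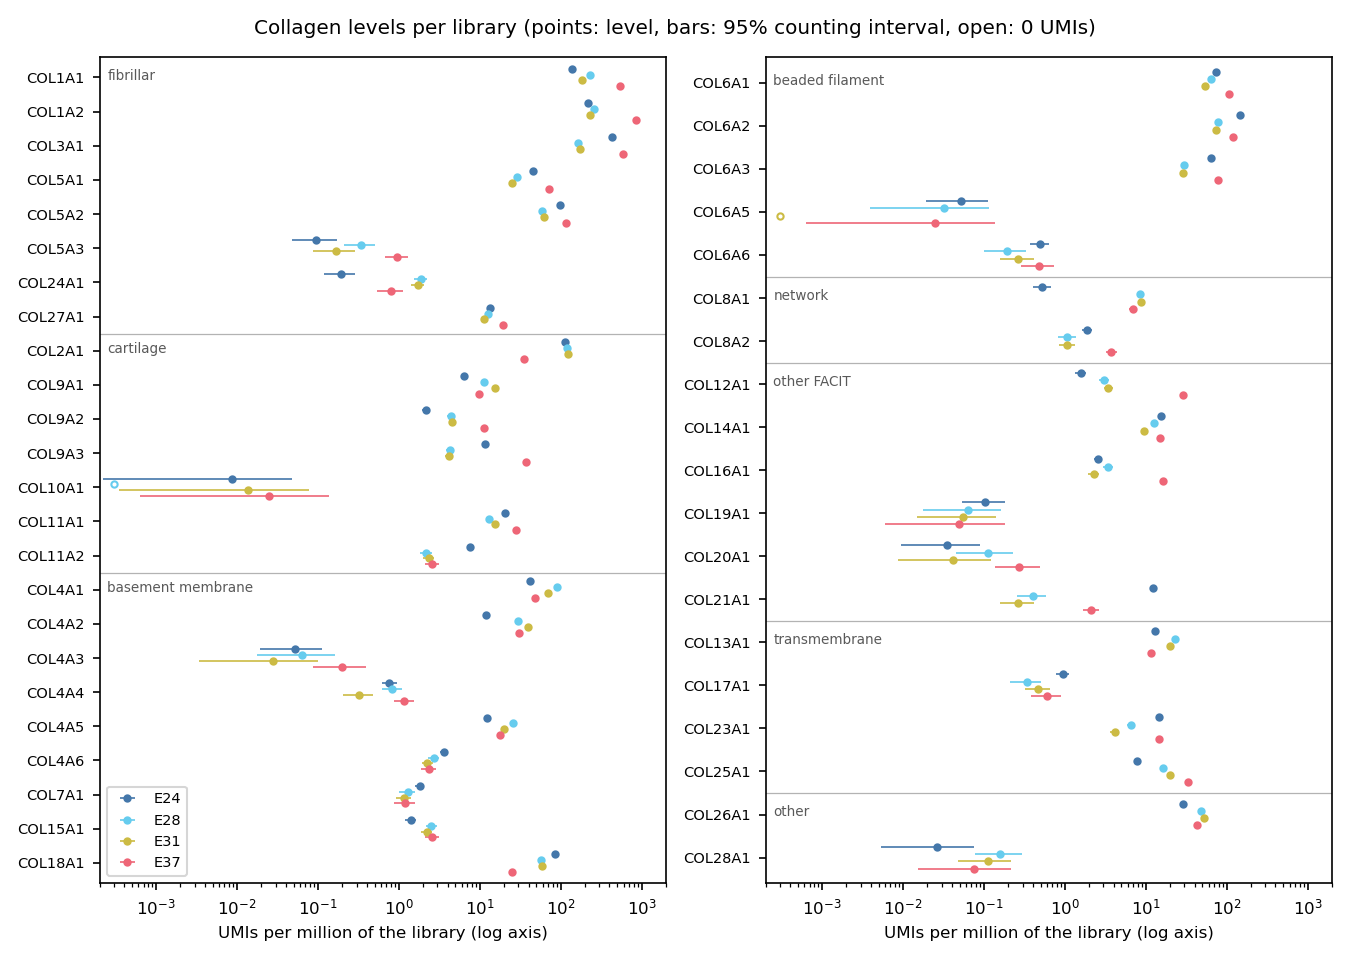
Level of each of the 43 collagens in each library, as UMIs per 1000000 UMIs on a log axis, grouped by type, with 95% counting intervals and open points at the left edge for 0 UMIs. COL1A1, COL1A2 and COL3A1 stood highest at E37, and COL2A1 and COL18A1 lowest there.

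The cartilage-associated genes did not move as a block. COL2A1, which encodes the chain of type II collagen, held 114, 120 and 122 CPM at E24, E28 and E31 and 34.9 CPM at E37. COL9A3, a chain of the type IX collagen that coats type II fibrils, did the reverse, with 11.6, 4.32, 4.13 and 37.2 CPM. Its partners differed again. COL9A1 read 6.32, 11.4, 15.6 and 9.82 CPM, and COL9A2 read 2.17, 4.43, 4.60 and 11.3 CPM. COL11A1, a chain of the type XI collagen at the core of cartilage fibrils, read 20.7, 13, 15.6 and 27.8 CPM. COL11A2, its partner, read 7.65, 2.18, 2.35 and 2.59 CPM. COL10A1, which marks hypertrophic cartilage, had 1, 0, 1 and 1 UMIs, and the 0 at E28 allows up to 0.0480 CPM at 3 counts. These tissues therefore held type II, IX and XI transcripts with no measurable type X.

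Among the basement membrane genes, COL4A1 and COL4A2, the chains of the ubiquitous type IV network, read 42.1, 89.8, 69.2 and 48.1 CPM and 12.0, 30.1, 39.5 and 30.4 CPM. Both were lowest at E24. COL4A5 read 12.1, 25.4, 19.9 and 18 CPM, and COL4A6, which joins it in some epithelia, read 3.60, 2.69, 2.24 and 2.34 CPM. COL4A3 and COL4A4, which join COL4A5 in the mature filter of the kidney glomerulus, were scarce: COL4A3 had 6, 4, 2 and 8 UMIs, and COL4A4 had 88, 52, 23 and 47 UMIs. COL18A1, the source of endostatin, was highest at E24 and lowest at E37, with 85.7, 56.8, 58.4 and 24.9 CPM. COL15A1, its vascular relative, lay between 1.40 and 2.59 CPM. COL7A1, the anchoring fibril collagen of skin, lay between 1.15 and 1.80 CPM.

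Of the type VI chains, which form fine filaments around cells, COL6A1 read 74.3, 63.1, 54.6 and 108 CPM. COL6A2 read 146, 78.0, 72.8 and 118 CPM, and COL6A3 read 64.8, 29.3, 29.0 and 77.4 CPM. COL6A5 had at most 6 UMIs and COL6A6 at most 57 in a library. Among the other fibril-associated genes COL21A1 belonged to the E24 library, with 12.3 CPM there and 0.40, 0.263 and 2.11 CPM later. COL12A1, found on fibrils under tension, read 1.56, 3.07, 3.45 and 29.2 CPM, and COL16A1 read 2.60, 3.43, 2.28 and 16.3 CPM. COL8A1, a short-chain collagen of vessel walls, stood at 0.529 CPM at E24 and then at 8.52, 8.61 and 6.96 CPM. COL25A1, a transmembrane collagen of neurons and muscle, was higher at each later stage, with 7.90, 16.3, 19.9 and 33.2 CPM. COL26A1 lay between 29.0 and 52.9 CPM. COL19A1, COL20A1 and COL28A1 had at most 12 UMIs in a library.

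Between neighbouring stages a gene was called measured with at least 50 UMIs in both libraries together and at least 5 expected in the smaller, and past the fold at 2-fold or more. From E28 to E31, where the dissection was the same, 1 of 34 measured collagens passed. COL4A4 was 2.61-fold lower at E31 (interval 1.57 to 4.47, 23 against 52 UMIs), and no collagen was higher. Over all measured genes 1.24% were higher and 3.12% lower. The collagen median was -0.08 on the log2 ratio scale, against -0.06 for all measured genes. Over these 3 days the abundant collagens thus kept their levels to within 2-fold.

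From E24 to E28, 7 of 36 measured collagens were higher and 8 lower, where 16.5% of all measured genes were higher and 6.07% lower. COL8A1 was 16.1-fold higher (12.3 to 21.3) and COL24A1 9.73-fold higher (6.13 to 16.1). The 3 basement membrane genes past the fold, COL4A1, COL4A2 and COL4A5, were 2.13-, 2.51- and 2.09-fold higher. COL25A1 and COL9A2 were 2.06- and 2.05-fold higher. COL21A1 was 30.8-fold lower (20.8 to 47.8), COL11A2 3.51-fold lower and COL17A1, the hemidesmosome collagen of epidermis, 2.81-fold lower. With every barcode thinned to 2000 UMIs COL21A1 was 73.7-fold and COL11A2 6.34-fold lower. These thinned values rest on few UMIs and have no interval. At E28 COL21A1 was then seen in 0.0398% and COL11A2 in 0.239% of barcodes. COL9A3, COL3A1 and COL6A6 were lower by 2.69-, 2.57- and 2.57-fold, and COL6A3 and COL23A1 by 2.21- and 2.20-fold. The median of the 8 measured basement membrane genes was 0.53 on the log2 ratio scale and that of the 7 measured fibrillar genes -0.07, against 0.24 for all measured genes.

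From E31 to E37, 14 of 36 measured collagens were higher and 3 lower, where 8.81% of all measured genes were higher and 8.05% lower. COL9A3 was 9.01-fold higher (7.95 to 10.2), COL12A1 8.47-fold (7.39 to 9.76), COL21A1 8.03-fold (4.84 to 14) and COL16A1 7.15-fold (6.02 to 8.53). COL1A2 was 3.76-fold higher (3.69 to 3.83), COL3A1 3.40-fold (3.32 to 3.47), COL1A1 2.98-fold (2.92 to 3.05) and COL5A1 2.85-fold (2.69 to 3.03). COL5A3, COL4A4, COL23A1 and COL8A2 were 5.69-, 3.67-, 3.57- and 3.52-fold higher, and COL6A3 and COL9A2 2.67- and 2.47-fold. COL2A1 was 3.50-fold lower (3.31 to 3.71), COL18A1 2.34-fold (2.19 to 2.51) and COL24A1 2.14-fold. Of the 8 fibrillar genes 5 were higher and 1 lower, with a median of 1.54 on the log2 ratio scale against -0.05 for all measured genes, while the 8 measured basement membrane genes had a median of -0.04. Mesenchyme making up more of the cells and more collagen RNA in each cell cannot be told apart in these summed values.

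The enzymes that build collagen and the proteins that bind, cut or regulate it formed a list of 48 genes, of which 45 were measured. From E31 to E37, 6 were higher and 2 lower, where 8.81% and 8.05% of all measured genes were. LOX, which cross-links fibrils, was 2.69-fold higher at E37 (39.2 against 14.6 CPM), and MMP2, a gelatinase, 2.98-fold higher (147 against 49.4 CPM). ITGA1, the collagen-binding integrin chain of smooth muscle, was 3.59-fold higher, and LARP6, which binds type I collagen messages, 2.19-fold higher. PLOD2, a lysyl hydroxylase, was 3.27-fold lower (10.4 against 34.1 CPM). From E24 to E28, 11 of 45 were higher and 2 lower, against 16.5% and 6.07% of all genes. PLOD2 was 2.79-fold and LOXL1, another cross-linking oxidase, 3.15-fold higher at E28. From E28 to E31 none of the 45 passed the fold, against 1.24% higher and 3.12% lower of all genes.

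Within each library, barcodes with at least 1 UMI of a marker were set against all the others, so that stage and dissection were shared. A barcode without a UMI may still come from a cell that expresses the marker, so the ratios describe barcodes and not pure cell types. The 6 markers gave 18 comparisons with at least 50 barcodes: PDGFRA, ACTA2 and PECAM1 in all 4 libraries, LHX9 at E28, E31 and E37, PAX1 at E24 and E31, and T at E24. The median barcode of a marker group held more UMIs than that of the rest in every comparison except PAX1 at E31 and PDGFRA at E37. Doublets could place a marker and a collagen in 1 barcode, and the values without high doublet scores are given beside folds printed below that moved by over 1.5 times without them. Over all stage and marker comparisons 209 collagen ratios were past the fold, and 186 of them stayed past it under every alternative in which they were measured. In 72 of the 209 the ratio moved by over 1.5 times under at least 1 alternative. The collagen median of the log2 ratio ran from -1.31 (PECAM1 at E37) to 0.36 (ACTA2 at E28 and E37), and that of all measured genes from -0.16 to 0.03.

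**Figure D2:**
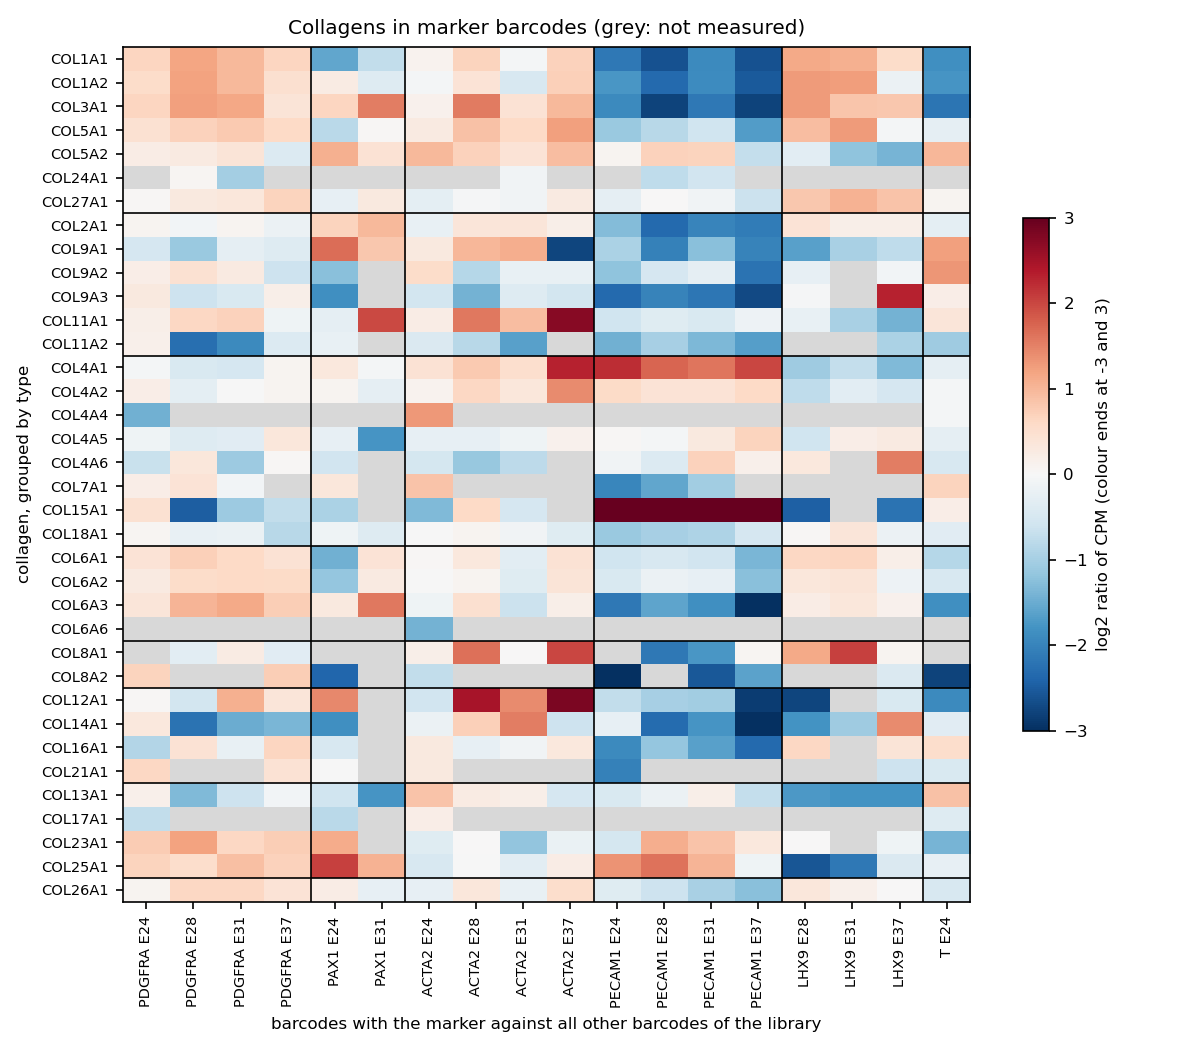
Log2 ratio of each collagen's CPM in marker barcodes to that in all other barcodes of the same library, for the 18 comparisons, with grey where a collagen was not measured. COL15A1 and COL4A1 were high in the PECAM1 columns of all 4 libraries, where COL1A1, COL1A2, COL3A1 and COL9A3 were low. COL17A1 at PAX1 E24 had 0 UMIs and is drawn at the bound that 3 counts give.

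PECAM1 encodes an endothelial adhesion molecule, and the 334, 291, 383 and 230 barcodes carrying it at E24, E28, E31 and E37 had CDH5, another endothelial adhesion gene, between 186- and 263-fold above the others. In them COL15A1 was 14.1, 22.0, 15.1 and 25.6 CPM, against 0.927, 1.03, 1.24 and 1.16 CPM elsewhere. That made it 15.2-, 21.3-, 12.2- and 22.1-fold higher. COL4A1 was 172, 259, 184 and 164 CPM, against 37.2, 76.9, 60.3 and 40.9 CPM, or 4.62-, 3.36-, 3.05- and 4.02-fold higher. Its partner COL4A2 was only 1.5-, 1.32-, 1.33- and 1.52-fold higher. Beside these 2 vessel collagens, COL25A1 was 2.55-, 3.11- and 2.02-fold higher at E24, E28 and E31.

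Of the measured fibrillar genes 4 of 6, 3 of 7, 3 of 7 and 4 of 6 were lower in the same barcodes, and of the cartilage genes 4, 3, 4 and 5 of 6. COL5A2, COL27A1 and COL11A1 were past the fold at no stage. COL1A1 was 4.45-, 6.10-, 3.75- and 6.10-fold lower and COL3A1 3.76-, 6.80-, 4.44- and 6.81-fold lower at the 4 stages. COL1A2, COL2A1, COL6A3, COL9A3 and COL16A1 were also lower in all 4, so that 7 of the 28 collagens measured in every library were lower in each and 2 higher in each. Counted by library, 3, 4, 3 and 2 collagens were higher where 8.36%, 8.62%, 9% and 8.8% of all measured genes were, and 14, 13, 14 and 17 were lower where 8.67%, 15.1%, 12.5% and 15.5% were. The collagen medians were -0.73, -0.75, -0.75 and -1.31 on the log2 ratio scale, against -0.04, -0.16, -0.10 and -0.16 for all measured genes. COL6A3 at E37 had the lowest ratio of the 7, with 6.83 against 81.7 CPM. At E24 COL8A2, COL21A1 and COL7A1 were 8.19-, 4.09- and 3.89-fold lower, COL7A1 2.15-fold as a mean over barcodes. The COL8A2 ratio at E24 was 0 without high doublet scores. COL8A2 was also lower at E31 and E37, and was not measured at E28. COL1A1 still read 31.5, 40.5, 51.0 and 93.1 CPM in PECAM1 barcodes, beside 24.6, 22.0, 18 and 96.4 CPM in macrophage barcodes, and its source there was not tested. With at least 2 PECAM1 UMIs COL1A1 was 24.9-fold and COL2A1 16.0-fold lower at E28. Without high doublet scores COL1A1 was 6.85- and 9.32-fold lower at E31 and E37, and COL3A1 9.37-fold lower at E31. At E28 and E31 COL12A1 was 2.002- and 2.05-fold lower, and 1.92- and 1.95-fold lower when barcodes with another of the 6 markers were left out, while COL25A1 at E31 was 1.71-fold higher as a mean over barcodes. TLL1, a propeptide-cleaving protease, was 42.4-, 102- and 118-fold higher in PECAM1 barcodes at E24, E28 and E31, and PCOLCE, the enhancer of that cleavage, 3.15- to 5.57-fold lower in all 4.

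ACTA2, smooth muscle actin, marked 832, 165, 287 and 160 barcodes. TAGLN, a smooth muscle gene, was 8.67- to 26.0-fold higher in them, so the group leaned to smooth muscle. The pericyte genes did not move together: RGS5 stood at 0.302 to 0.717 of its level elsewhere, and PDGFRB at 1.34, 1.17, 0.722 and 1.86 times its level elsewhere. At E24, 41.6% of the ACTA2 barcodes carried another of the 6 markers. At E37, COL12A1 stood at 173 CPM against 24.3 (7.11-fold, 6.13 to 8.22), COL11A1 at 156 against 23.4 (6.67-fold, 5.71 to 7.76) and COL4A1 at 212 against 42.5 (4.98-fold, 4.37 to 5.65). COL8A1 was 4.04-fold, COL4A2 2.66-fold and COL5A1 2.36-fold higher. COL9A1 was 6.73-fold lower, on 2 UMIs (1.85 to 55.7). These were 6 higher and 1 lower of 26 measured, where 3.48% and 4.8% of all measured genes were. The cartilage chain COL11A1 thus ranked beside type XII and type IV collagen in smooth-muscle-leaning barcodes. With at least 2 ACTA2 UMIs COL12A1, COL11A1 and COL4A1 were 12.5-, 12.3- and 8.72-fold higher.

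At E28 the ACTA2 barcodes had COL12A1 5.53-fold (3.72 to 8.02), COL8A1 3.15-fold, COL11A1 3.01-fold and COL3A1 2.93-fold higher. These were 4 of 29 measured collagens, with 1.05% of all measured genes higher, and COL4A6 and COL9A3 were lower on 3 and 4 UMIs (2 of 29, 5.7% of all genes). At E31 COL14A1 was 2.90-fold, COL12A1 2.67-fold and COL9A1 2.12-fold higher (3 of 30, 1.48% of all genes), and COL11A2 and COL23A1 were lower (2 of 30, 5.93%). COL12A1 was the collagen higher in these 3 libraries. With a companion gene required as well, COL9A1 at E31 was 1.76-fold higher and COL23A1 1.67-fold lower, and COL12A1 was 5.13-fold higher. At E28 COL3A1 was 5.89-fold and COL11A1 6.72-fold higher with at least 2 ACTA2 UMIs. At E24, where COL4A4 was 2.47-fold higher and COL6A6 and COL15A1 were lower (COL15A1 1.73-fold without the other markers), 1 of 35 was higher and 2 lower, against 2.18% and 5.03% of all genes, and COL12A1 was not past the fold. LOX was 3.77-, 3.59- and 3.05-fold higher in the ACTA2 barcodes at E28, E31 and E37, and ITGA1 2.88-, 2.51- and 5.82-fold.

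PDGFRA, the receptor that marks mesenchyme, was found in 557, 321, 418 and 351 barcodes, mostly by a single UMI. By the mesenchyme gene PRRX1 the group stood apart more at E28 and E31 (2.86- and 2.94-fold higher) than at E24 and E37 (1.43- and 1.67-fold). At E28 and E31 TWIST1 was 2.85- and 2.81-fold, LUM 2.55- and 1.95-fold and DCN 1.54- and 1.48-fold higher. OSR1 stood at 0.798 and 1.31 times its level elsewhere, and FOXF1 had too few UMIs to be compared at these stages. At E24 and E37 TWIST1 was 1.38- and 1.24-fold, LUM 1.29- and 1.15-fold and DCN 1.70- and 1.05-fold higher. OSR1 was 1.44- and 1.33-fold and FOXF1 1.89- and 1.35-fold higher there. The stage contrast of PRRX1 was thus shared by TWIST1 and LUM but not by OSR1, and DCN was highest at E24. At E28 COL1A1 was 488 CPM against 214, COL1A2 545 against 237 and COL3A1 355 against 152, that is 2.28-, 2.30- and 2.33-fold higher. COL23A1 and COL6A3 were 2.31- and 2.02-fold higher. In all 5 of 31 were higher and 5 lower (1.27% and 12.5% of all measured genes). COL11A2 and COL15A1 were lower on 2 UMIs each, COL14A1 4.65-fold lower, COL13A1 2.48-fold lower and COL9A1 2.15-fold lower. At E31 COL3A1, COL6A3 and COL12A1 were 2.23-, 2.20- and 2.1-fold higher (3 of 31, 1.1% of all genes) and 5 were lower (11.6%). COL11A2 was 3.77-fold lower at E31, or 6.86-fold as a mean over barcodes, and COL24A1 was also lower. COL14A1 was 2.81-fold lower there and 2.59-fold lower at E37, where it was the only collagen of 31 past the fold (6.57% of all genes were lower and 0.618% higher). At E24 only COL4A4 of 33 was past it, lower on 2 UMIs (5.96% lower, 0.344% higher). At E31 COL1A1 and COL1A2 were 1.95- and 1.98-fold higher, just under the fold. The PDGFRA barcodes were thus past the fold for type I and III collagen at E28 and for type III at E31, and had less COL14A1 from E28 on, 7.19-fold less at E28 without high doublet scores. The lower calls of COL4A4 at E24 and COL9A1 at E28, those of COL15A1 and COL4A6 at E31 (5 UMIs each) and the higher call of COL12A1 at E31 each ended under at least 1 alternative.

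LHX9, a homeobox gene needed for the gonad, marked 144, 67 and 619 barcodes at E28, E31 and E37. GATA4, a regulator of the genital ridge, was 5.27-fold higher in them at E37 (4.38 to 6.32), and had 7 and 2 UMIs in them at E28 and E31, too few to be compared. EMX2 and WT1, which the ridge shares with the mesonephros, were 4.95- and 2.35-fold higher at E37 but within 1.11-fold of the other barcodes at E28 and E31. NR0B1 went the other way, 2.62-fold (2.32 to 2.95) higher at E28, 2.36-fold (2.03 to 2.74) at E31 and 1.42-fold at E37. NR5A1, which marks gonadal and adrenal somatic cells, had 0 UMIs in LHX9 barcodes at all 3 stages. All the other barcodes held only 6, 5 and 7, too few for it to be compared. The measured genes did not move together across the stages, so the groups are called by LHX9 and not by a cell type. At E37 COL9A3 was 124 CPM in LHX9 barcodes and 25.1 CPM in the others (4.95-fold, 4.46 to 5.50). It was found in 48.5% of them as counted and in 21.6% after thinning each barcode to 2000 UMIs, against 3.92% and 0% of macrophage barcodes, whose median depth was 8313 UMIs against 7213. COL4A6 was 2.90-fold (1.79 to 4.60) and COL14A1 2.66-fold (2.20 to 3.19) higher. COL15A1, COL13A1, COL11A1, COL5A2 and COL4A1 were 4.67-, 3.48-, 2.68-, 2.63- and 2.52-fold lower. These were 3 higher and 5 lower of 31, against 2.77% and 9.46% of all genes. Within type IX, COL9A3 UMIs were 11.5 times those of COL9A2 in LHX9 barcodes (8.67 to 15.5) and 2.20 times in the others (1.95 to 2.48).

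In LHX9 barcodes at E37 COL1A1 and COL1A2 stood at 1.46 and 0.881 times their level elsewhere, under the fold. COL3A1 was at least 1.74-fold higher at all 3 stages. At E28 these type I and III genes were past the fold. COL1A1 was 491 CPM against 223, COL1A2 597 against 246 and COL3A1 386 against 158, or 2.20-, 2.43- and 2.44-fold higher, and COL8A1 was 2.19-fold higher, or 1.996-fold as a mean over barcodes. COL12A1, COL25A1, COL15A1, COL14A1, COL13A1, COL9A1 and COL4A1 were lower by 6.72-, 5.93-, 5.49-, 3.44-, 3.31-, 3.1- and 2.11-fold, COL12A1 and COL15A1 on 1 UMI each. These were 4 higher and 7 lower of 28, against 1.75% and 11.9% of all genes. At E31 COL8A1 was 4.11-fold (2.75 to 5.93), COL5A1 2.42-fold, COL1A2 2.39-fold, COL1A1 2.11-fold and COL27A1 2.07-fold higher, and COL25A1, COL13A1, COL5A2 and COL14A1 were lower by 4.43-, 3.49-, 2.30- and 2.09-fold. That was 5 higher and 4 lower of 21, against 1.29% and 7.77% of all genes. COL13A1 was the collagen lower at all 3 stages. At E31 COL1A1 was 1.94-fold and COL27A1 1.98-fold higher as a mean over barcodes, and COL14A1, with 4 UMIs, was then 1.48-fold lower.

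PAX1, a sclerotome gene, marked 449 barcodes at E24 and 51 at E31. Its partner PAX9 was 21.4-fold higher in them at E24. At E31 PAX9 had 26 UMIs in them, too few to be compared. There TWIST1 was 5.88-fold higher, and FOXC2 and MEOX1 were 1.91- and 1.25-fold higher, under the fold. Of the cartilage regulators SOX5, SOX6 and SOX9, 2 were past the fold and higher at each stage, and 1 was lower at E24. SOX9 was 4.64- and 10.1-fold higher. At E24 COL25A1 was 28.5 CPM against 6.90 (4.13-fold, 3.45 to 4.92) and COL9A1 18.4 against 5.74 (3.2-fold, 2.56 to 3.97). COL12A1, COL23A1 and COL5A2 were 2.72-, 2.16- and 2.08-fold higher, COL23A1 1.95-fold as a mean over barcodes. COL2A1 was 176 CPM against 110, under the fold. At E31 COL2A1 was 239 against 121 CPM, again just under 2-fold. COL9A1 was 1.75-fold higher at E31, on 14 UMIs (0.956 to 2.96). The ratio for the type II gene was thus smaller than that for COL9A1 at E24, and at E31 the interval for COL9A1 included the ratio of COL2A1.

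COL1A1 was 47.4 CPM in the PAX1 barcodes at E24 and 141 CPM in the others (2.96-fold lower). COL9A3, COL14A1, COL6A1, COL9A2 and COL6A2 were 3.57-, 3.56-, 2.72-, 2.38- and 2.24-fold lower, COL9A2 on 5 UMIs and at 1.93-fold without high doublet scores and 1.71-fold as a mean over barcodes, COL8A2 was lower on 2 UMIs, and COL17A1 had 0 UMIs. These were 5 higher and 8 lower of 32, against 1.48% and 12.8% of all genes. At E31 COL11A1 was 3.94-fold (2.66 to 5.62), COL6A3 2.99-fold, COL3A1 2.88-fold and COL25A1 2.06-fold higher, and COL4A5 and COL13A1 were lower on 3 UMIs each (4 and 2 of 19, against 1.73% and 8.84% of all genes). COL25A1 was the collagen past the fold and higher at both stages, at E31 on 21 UMIs and at 1.98-fold where a companion gene was also required.

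T, the brachyury gene, is expressed in the notochord and in the caudal progenitors of the trunk. Of its 558 barcodes at E24, 93 also carried SHH, NOTO, CHRD or FOXA2, 403 carried none of these but a caudal gene, TBX6, MSGN1, NKX1-2 or CDX2, and 62 carried neither. Of the 558, 49.8% carried another of the 6 markers. SHH, NOTO, CHRD and FOXA2 were 15.7-, 225-, 26.7- and 2.92-fold higher in T barcodes than in the others. CAV1, also listed as a notochord gene, was not used for the split and went the other way. It was 4.01-fold lower in T barcodes (2.77 against 11.1 CPM). In the notochord and caudal sets CAV1 had 6 and 10 UMIs, too few to be compared. The caudal set was the larger even though the caudal growth region had been cut away. Against all other barcodes, COL9A2 was 2.49-fold (1.68 to 3.59) and COL9A1 2.34-fold (1.87 to 2.91) higher, 2 of 33 measured, where 3.48% of all genes were. The 8 lower collagens (7.17% of all genes) included COL3A1 with 97.0 against 446 CPM (4.60-fold). COL8A2 and COL12A1 were 6.82- and 3.73-fold lower on 2 and 3 UMIs, and COL1A1, COL6A3, COL1A2, COL23A1 and COL11A2 were 3.58-, 3.57-, 3.41-, 2.62- and 2.08-fold lower. Without high doublet scores COL3A1, COL1A2, COL6A3, COL23A1 and COL11A2 were 8.10-, 5.73-, 5.38-, 4.96- and 3.32-fold lower, and COL8A2 and COL12A1 11.4- and 9.23-fold. COL5A2 was 185 against 92.7 CPM (1.99-fold higher), just under the fold. With a companion gene required, COL9A1 was 5.62-fold higher and COL11A2 only 1.33-fold lower. With no UMI of the other 5 markers COL12A1 was 1.84-fold lower.

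Splitting the T barcodes separated the cartilage-type genes. COL2A1 stood at 176 CPM in those with notochord genes and 71.3 CPM in those with caudal genes (2.47-fold, 2.09 to 2.93). COL9A1 stood at 35.7 against 8.44 CPM (4.23-fold, 2.73 to 6.59), COL9A3 at 34.3 against 7.38 (4.64-fold, 2.93 to 7.40) and COL11A1 at 61.2 against 16.7 (3.67-fold, 2.67 to 5.06). All 4 measured cartilage genes were past the fold. COL4A5 and COL27A1 were 2.21- and 2.05-fold higher, COL27A1 at 1.99-fold with at least 2 T UMIs, so that 6 of 21 measured collagens were higher, against 3.5% of all genes. COL21A1 and COL13A1 were 2.89- and 2.85-fold lower (2 of 21, 2.11% of all genes). COL5A2 ran the other way but under the fold (1.93-fold lower), with 115 CPM in the notochord set and 223 CPM in the caudal set. The type I and III genes did not separate the sets: COL1A1 was 43.0 against 35.2 CPM and COL3A1 81.6 against 82.9 CPM. SOX9 was 8.90-fold and SOX6 10.3-fold higher with notochord genes, while CDX2 was 329 against 403 CPM, so the notochord set was not free of caudal expression.

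**Figure D3:**
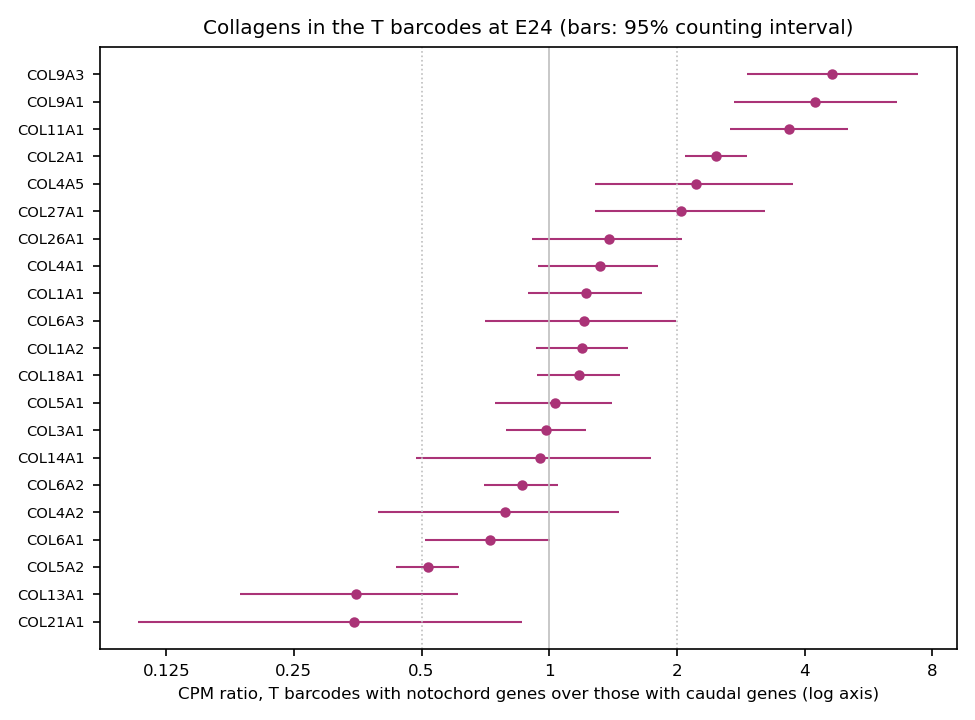
Ratio of CPM on a log axis for the 21 measured collagens, in T barcodes with notochord genes (93) over T barcodes with caudal genes (403) at E24, with 95% counting intervals and dotted lines at 2-fold. COL9A3, COL9A1, COL11A1 and COL2A1 stood at the top.

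Barcodes with at least 2 of the neural crest and glia markers SOX10, FOXD3 and ERBB3 numbered 57, 68, 106 and 268 at E24, E28, E31 and E37. COL5A2 was 57.2 CPM at E24, below the 98.5 of the other barcodes, and then 569, 470 and 693 CPM, against 49.1, 54.4 and 78.1 CPM. That is 11.6-, 8.64- and 8.88-fold higher at E28, E31 and E37. COL11A2 was 87.5, 58.5, 65.3 and 16.1 CPM, 12.4-fold above the other barcodes at E24 and 9.49-fold at E37. At E28 the group held 67 of the 136 COL11A2 UMIs in the library and at E31 89 of 170, in 68 and 106 barcodes. COL25A1 was 11.7, 84.8, 93.3 and 52.7 CPM, 5.64- and 5.03-fold above the other barcodes at E28 and E31. Macrophage barcodes held 25.5 to 53.2 CPM of COL5A2 and at most 7.16 CPM of COL11A2. The levels in neural crest and glia barcodes from E28 on stood above those values. At E24, with 57 barcodes, COL11A2 was 179 CPM with all 3 markers required, and COL5A2 was 33.3 CPM without high doublet scores.

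COL12A1 had 0 UMIs in the neural crest and glia barcodes at E24. It was 24.5 CPM on 28 UMIs at E28 and 11.7 CPM on 16 UMIs at E31, against 2.67 and 3.29 CPM elsewhere, though under the limit for a call. At E37 it was 85.7 CPM (3.36-fold higher than elsewhere). Other collagens past the fold at E37 were COL14A1 at 70.0 CPM (6.23-fold higher), COL11A1 at 84.9 CPM (3.53-fold), COL9A2 at 26.1 CPM (2.52-fold) and COL18A1 at 109.8 CPM (5.68-fold). COL18A1 had been 44.3, 69.9 and 73.4 CPM in these barcodes at the earlier stages, and its lower library level at E37 was thus not seen in them. COL3A1 was low throughout, at 94.5, 97.0, 47.0 and 66 CPM, beside 84.9, 12.7, 15.7 and 96.4 CPM in macrophage barcodes. COL9A3 was 4.42 CPM at E37, 8.89-fold lower than elsewhere.

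**Figure D4:**
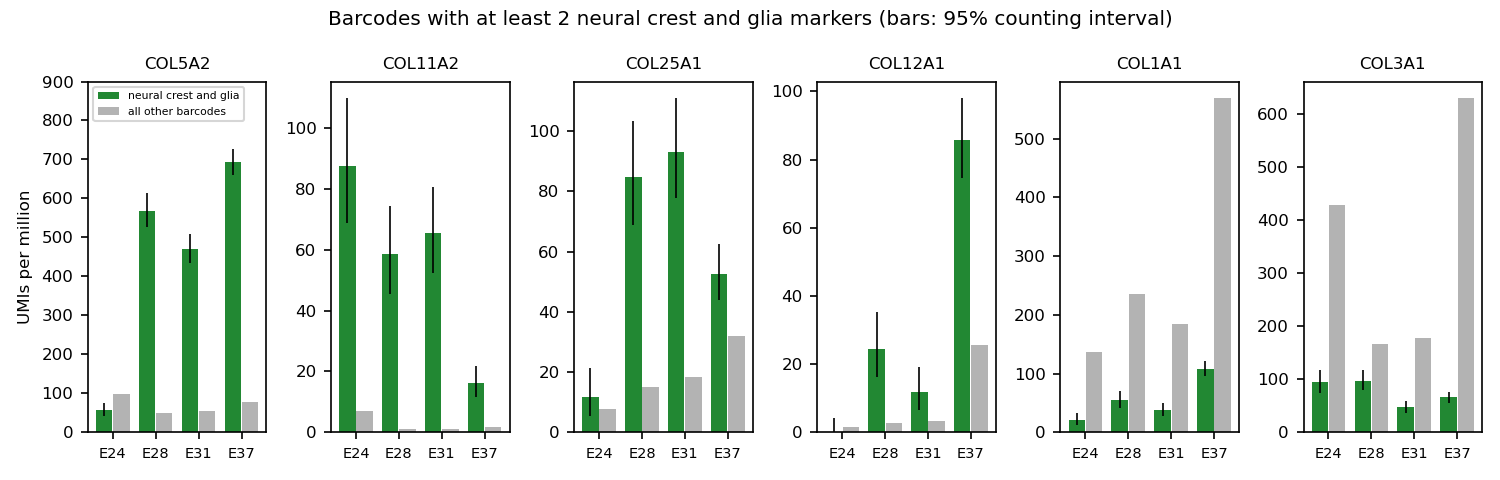
Levels of 6 collagens, as UMIs per 1000000 UMIs on axes from 0, in barcodes with at least 2 neural crest and glia markers (green, with 95% counting intervals) and in all other barcodes of the library (grey). COL5A2, COL11A2 and COL25A1 stood above the other barcodes at E28, E31 and E37, and COL1A1 and COL3A1 below them at all 4 stages.

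Podocytes, the filter cells of the glomerulus, were sought in the mesonephros with at least 2 of NPHS1, PTPRO, PLA2R1 and CLIC5, which gave 512 barcodes at E28 and 398 at E31. COL13A1, a transmembrane collagen, was 71.3 and 88.1 CPM in them, 3.92- and 5.66-fold above the other barcodes, and macrophage barcodes held 6.95 and 7.83 CPM. COL9A2 was 9.93 and 10.8 CPM, 2.54- and 2.56-fold higher. COL3A1 was 25.0 and 24.6 CPM, 7.16- and 7.47-fold lower. Without high doublet scores COL3A1 was 9.21 and 6.97 CPM, and with at least 3 markers 32.2 and 37.1 CPM. COL4A5 was 37.1 and 35.9 CPM, and COL4A1 86.0 and 54.9 CPM. COL4A3 had 0 UMIs in these barcodes at both stages, which allows up to 0.551 and 0.738 CPM at 3 counts, and COL4A4 had 6 and 1 UMIs. The glomerular chains were thus represented by COL4A5 and, at this depth, not by COL4A3.

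Nephric tubule and duct barcodes (at least 2 of PAX2, PAX8, LHX1 and GATA3) numbered 642, 2067, 2214 and 54, and made up a large part of the mesonephros libraries. COL14A1, a fibril-associated collagen of loose connective tissue, was 23.8 and 18.6 CPM in them at E28 and E31, against 3.63 and 3.45 CPM elsewhere, which is 6.54- and 5.41-fold higher. That is the reverse of its lower level in PDGFRA barcodes of the same libraries. COL24A1 was 2.78 against 1.10 CPM at E28. COL3A1 was 53.8 and 56.7 CPM, 4.77- and 4.44-fold lower, and COL25A1 4.94- and 5.89-fold lower. At E37, with 54 barcodes, COL4A5 was 52.1 CPM (2.97-fold higher), COL2A1 91.1 CPM (2.67-fold) and COL18A1 50.2 CPM (2.04-fold).

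Neural tube barcodes were compared at E24 (1487, at least 2 of PAX6, SOX2, OLIG2 and NKX6-1). COL1A1 was 21.4 CPM (7.19-fold lower), COL1A2 35.1 CPM (6.98-fold) and COL3A1 69.1 CPM (6.97-fold), close to the 24.6, 48.1 and 84.9 CPM of macrophage barcodes. COL2A1 was 54.6 CPM, 2.25-fold lower, and COL5A2 25.5 CPM, 4.29-fold lower.

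Other epithelial groups had collagens in common with cartilage. Surface ectoderm barcodes at E24 (476, at least 2 of TP63, TFAP2A, WNT6 and GRHL3) held COL17A1 at 7.29 CPM, 14.1-fold above the others, COL18A1 at 163 CPM and COL2A1 at 207 CPM. Gut endoderm barcodes at E24 (396, at least 2 of FOXA1, FOXA2, TTR and CDH1) held COL2A1 at 236 CPM, 2.21-fold higher, with COL4A5 2.45-fold and COL9A1 2.38-fold higher. Coelomic epithelium barcodes (at least 2 of LRRN4, KRT19, UPK1B and MSLN) held COL9A3 at 11.6, 6.17, 5.21 and 149 CPM, and COL2A1 at 141, 173, 163 and 82.1 CPM. At E37 their COL9A3 was 4.38-fold and COL2A1 2.44-fold above the other barcodes. Type II collagen RNA was thus counted in epithelial barcodes as well as those with PAX1 or notochord genes. Beside these values, erythroid barcodes held COL2A1 at 62.3, 61.7, 43.5 and 4.18 CPM and macrophage barcodes at 34.8, 18.5, 22.7 and 7.50 CPM.

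The ratio of COL1A1 to COL1A2 UMIs was followed because type I collagen is mostly built from these chains in fixed proportion. Over whole libraries it was 0.629, 0.900, 0.790 and 0.626. In neural crest and glia barcodes it was 0.118 (0.0683 to 0.194), 0.162 (0.122 to 0.212), 0.128 (0.0940 to 0.172) and 0.280 (0.244 to 0.321). There COL1A2 held 177, 340, 292 and 385 CPM but COL1A1 21.0, 55.0, 37.4 and 108 CPM. In macrophage barcodes the ratio was 0.511 (0.299 to 0.852) at E24, 0.377 (0.223 to 0.618) at E31 and 0.714 (0.539 to 0.944) at E37, and at these 3 stages the interval did not overlap that of neural crest and glia barcodes. At E28 the macrophage barcodes held 19 COL1A1 and 29 COL1A2 UMIs, under the 50 required for a ratio. The COL1A1 level in neural crest and glia barcodes was below that of macrophage barcodes at E24 and above it at the later stages. Without high doublet scores the neural crest and glia values were 0.0111 at E24 and 0.0601 at E31. The E24 value rests on few COL1A1 UMIs. PAX1 barcodes at E24 gave 0.185 (0.161 to 0.212) and those at E31 0.615 (0.433 to 0.868). Surface ectoderm at E24 gave 0.201 (0.180 to 0.224), and 0.105 with at least 3 markers.

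Podocyte barcodes lay at the other end, with 1.48 (1.36 to 1.61) at E28 and 1.71 (1.53 to 1.91) at E31, where COL1A1 was 251 and 211 CPM and COL1A2 169 and 124 CPM. Coelomic epithelium barcodes gave 0.663, 1.07, 0.846 and 1.43, and LHX9 barcodes at E37 gave 0.965 (0.922 to 1.01) against 0.584 (0.574 to 0.595) in the others. Barcodes with at least 2 sympathoadrenal markers at E37 (391) gave 0.119 (0.107 to 0.131). With at least 3 markers that value was 0.237, and COL1A2 there dropped from 862 to 292 CPM, so this group changes with the rule. The capture of the transcript ends is shared by all groups of a library, so only differences of the ratio are read and not its level.

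**Figure D5:**
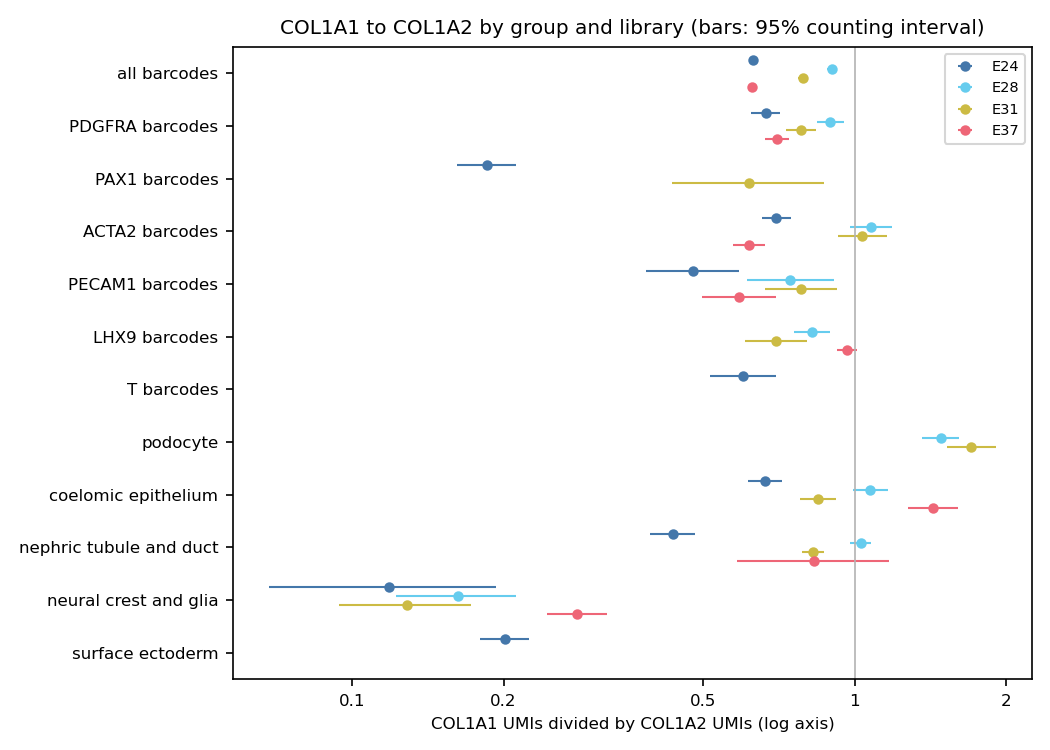
COL1A1 UMIs divided by COL1A2 UMIs on a log axis, by group and library, with 95% counting intervals. Neural crest and glia barcodes lay between 0.118 and 0.280, and podocyte barcodes at 1.48 and 1.71.

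COL4A1 and COL4A2 are transcribed in opposite directions from a shared promoter. Their UMI ratio was 3.51, 2.98, 1.75 and 1.58 over whole libraries. In PECAM1 barcodes it was 9.74 (7.66 to 12.6), 6.66 (5.67 to 7.87), 3.58 (3.12 to 4.12) and 3.67 (2.95 to 4.59), against 3.16, 2.62, 1.56 and 1.39 in the others. ACTA2 barcodes at E37 gave 2.76 (2.20 to 3.50), and LHX9 barcodes there 0.927 (0.70 to 1.23). The endothelial ratio was thus above the rest of its library at every stage. The ratio of COL5A1 to COL5A2 was 0.468 outside LHX9 barcodes at E28 and 1.11 within them, and at E31 0.390 and 2.17. For type VI the ratio of COL6A3 to COL6A2 in PECAM1 barcodes was 0.140, 0.148, 0.137 and 0.133, against 0.453, 0.391, 0.416 and 0.669 in the others. COL6A3 was thus low relative to its partner chain in endothelial barcodes at every stage.

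The share of barcodes with a collagen UMI was high for the abundant genes, even in erythroid barcodes. COL1A2 was seen in 49.8%, 54.7%, 54.1% and 83.4% of barcodes, and in 24.1%, 30.4%, 28.7% and 68.4% after thinning to 2000 UMIs. Erythroid barcodes showed it in 18.6%, 29.5%, 6.25% and 11.9% after thinning, with median depths of 16082 to 23490 UMIs at E24, E28 and E31 and 13545 at E37. The thinned share at E28 was therefore close to that of erythroid barcodes with at least 3 markers. How much of either share was free RNA was not tested. The 5-marker rule, which lowered the erythroid collagen share from 0.0996% to 0.0168% at E24, gave no value at E28. COL9A3 was seen in 2.0%, 0.935% and 0.841% of thinned barcodes at E24, E28 and E31 and in 6.88% at E37, where the erythroid share was 1.49%.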

How the data were processed

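Single-cell 3′ libraries of monkey embryos were read as raw UMI counts per gene and barcode, as deposited by the authors. Per the submitters' processing notes they come from Cell Ranger 2.1.0. The build and the gene annotation were not given in the sources used here, and the protocol names both v2 and v3 kits without saying which applied. A row without a gene name (1) held 0 UMIs. Barcodes with under 500 genes (5, all at E37) were left out, which kept 27621. Doublet calls by Scrublet (scanpy 1.11.5) numbered 0, 64, 7 and 5, too few to have worked at E24, E31 and E37, so none were removed. As an alternative the 906, 202, 355 and 224 highest scores were removed.

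UMIs were summed over barcodes and given as CPM with exact Poisson intervals. Ratios have exact conditional binomial and shares exact binomial intervals, at 95%, for counting error only. With 1 library per stage no test was run. A gene was measured with at least 50 UMIs in both groups together and 5 expected in the smaller, and past the fold at 2-fold. Marker barcodes had at least 1 UMI of the marker, and class barcodes at least 2 class markers (erythroid 3). Some class markers are not reported here, and the classes were rebuilt without them after their values were seen. The floor for 0 UMIs is 3 counts. The ratio intervals were run on simulated Poisson counts, the model they are built on. The simulation left out the clustering of UMIs within barcodes, so it cannot show that the intervals hold for these data. Every fibrillar, cartilage and basement membrane member and every member with at least 100 CPM in a library was named. Up to 8 per direction were to be named in each comparison, but not all of these were. The members and lists were chosen with earlier results of these data known. Of the 43 collagens, 42 matched RefSeq gene names. No sequence was printed, since no sequence table or genome was used here. Work was done with Python 3.11.15, numpy 2.4.6, scipy 1.17.1, pandas 2.3.3 and matplotlib 3.10.9.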

Additional observations from a re-analysis of the deposited data

Results flagged for a closer look

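A pair of collagens was past 2-fold in opposite directions for the same marker at different stages. In ACTA2 barcodes COL9A1 had a ratio to the other barcodes of 2.12 at E31 and 0.149 at E37, the latter on 2 UMIs. In LHX9 barcodes COL14A1 had a ratio of 0.290 at E28, 0.479 at E31 and 2.66 at E37, and the E31 interval, on 4 UMIs, includes 1. These differences between stages were not tested.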

How the results depend on the processing

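Of 176 alternative values of the counts and chain ratios, 152 differed little, 24 moved and 0 turned direction. For single collagens 3065 of 3542 differed by less than counting error, 477 moved and 0 turned direction. With a minimum of 200 UMIs, or thinned to 2000 UMIs, the collagen past the fold between E28 and E31 was lost, leaving 0. The number past the fold in PDGFRA barcodes at E24, 1 in the report, was 8 with at least 2 PDGFRA UMIs, 2 without high doublet scores, and 0 with a companion gene, without the other markers or with 200 UMIs. In ACTA2 barcodes at E24 it was 5 in place of 3 with 2 marker UMIs, and 0 without the other markers or with 200 UMIs. With 2 marker UMIs it was 10 in place of 6 for ACTA2 at E28, 4 in place of 9 for LHX9 at E31, 2 in place of 1 for PDGFRA at E37 (also 2 without the other markers) and 5 in place of 8 for the split T barcodes. It was 4 in place of 8 for PDGFRA at E31 with 200 UMIs. The following were chosen after seeing the data. With at least 3 class markers COL1A1 to COL1A2 was 0.105 in surface ectoderm barcodes at E24, 0.762 in coelomic epithelium at E31, 0.333 in neural crest and glia at E37 and 0.237 in sympathoadrenal barcodes at E37. Without high doublet scores it was 0.0111 at E24, on few COL1A1 UMIs, and 0.0601 at E31 in neural crest and glia. In podocytes at E31 it was then 2.07, and in sympathoadrenal barcodes at E37 0.0889. The cause of these moves was not tested. No paired analysis was possible because each stage has 1 library. Depth limits the small groups: a collagen under 50 UMIs in both groups together was not compared.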
